A study of Homo sapiens with 9 samples.

Results

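HOX genes encode transcription factors that bind DNA through a homeodomain and that give cells their position along the body axis. They lie in 4 clusters, HOXA to HOXD, and were taken here as the protein-coding genes whose symbol is one of those letters with a number. The rule gave 39 genes of the 58237 genes in the annotation (19875 of them protein-coding): 11 in HOXA, 10 in HOXB, 9 in HOXC and 9 in HOXD. Their RNA was measured in H358, an established line of non-small cell lung cancer. There were 3 libraries of the parental line, 3 of a line in which CRISPR had knocked out BRG1 (gene SMARCA4) and 3 of a line in which CRISPR had knocked out BRM (gene SMARCA2). The medium was RPMI with fetal bovine serum for all 9. The sources used here do not give whether a knockout line was 1 clone or a pool, nor whether the 3 libraries of a group came from separate cultures. The p-values therefore reflect spread among these libraries, which may be technical. The parental line was the only control, and effects of gene editing itself cannot be told apart from effects of the missing protein.

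Within a cluster, HOX genes are numbered by paralog group from the anterior end to the posterior end, and low-numbered genes are switched on first and further forward in the embryo. Retinoic acid opens the anterior end, Polycomb proteins keep clusters silent and Trithorax proteins keep them active. BRG1 or BRM drives each SWI/SNF chromatin remodeller by splitting ATP, and the fly counterpart, Brahma, was found as an activator of homeotic genes. In lung, HOXA5 is known for its part in the development of the airways.

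Only 5 members had enough reads to be tested, HOXA3, HOXA5, HOXA6, HOXC10 and HOXD1. The homeoboxes of HOXA5, the member with the most reads, and HOXC10, the member with the widest change, are shown because this stretch is what the family shares and because a read from a shared stretch could be given to the wrong gene. Each is 180 bases of the GENCODE transcript, 5′ to 3′, with the 18 bases that encode the core of the DNA-recognition helix in capitals.
HOXA5: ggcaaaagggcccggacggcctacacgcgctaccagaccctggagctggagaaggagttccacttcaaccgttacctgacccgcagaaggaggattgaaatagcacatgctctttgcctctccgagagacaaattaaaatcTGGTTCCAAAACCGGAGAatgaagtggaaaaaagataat
HOXC10: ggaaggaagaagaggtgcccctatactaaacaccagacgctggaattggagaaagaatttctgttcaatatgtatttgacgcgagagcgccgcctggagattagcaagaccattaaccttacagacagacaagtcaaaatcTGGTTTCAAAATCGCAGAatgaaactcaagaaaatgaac
The 2 are identical at 107 of 180 bases (59.4%). A homeobox was found in each of the 39 members. HOXA5 and HOXA6, neighbours in the same cluster, were the closest pair of the 5 tested members, with 138 of 180 bases identical (76.7%), and HOXA5 and HOXD1 the most distant, at 56.7%. In HOXA5 the shared bases did not run long, however. Of the 1676 stretches of 31 bases in HOXA5 transcripts, 6 (0.358%) also occurred in another gene. For HOXC10 the share was 6.62%, for HOXA3 14.6%, for HOXA6 37.0% and for HOXD1 55.2%. In HOXA6 nearly all of the shared stretches lay in the antisense noncoding gene HOXA-AS3 (433 of 457), and in HOXD1 most lay in the antisense gene AC009336.3 (959 of 1074), which was listed at 0 reads in all 9 libraries. The sources used here give no strand setting for the quantification, so reads of a gene and of its antisense partner cannot be told apart where they overlap.

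The libraries held 31969961 to 40679073 estimated reads. The knocked-out genes followed the labels. SMARCA4 stood at 244, 216 and 212 CPM (reads scaled to a common library size) in parental libraries and fell to 23.9, 21.2 and 23.6 CPM with BRG1 knocked out, a log2 change of −3.29 ± 0.14 (SE; edgeR adjusted p = 4.13e-07). SMARCA2 had 1606, 2223 and 2327 reads in parental libraries against 385, 399 and 370 with BRM knocked out, a log2 change of −2.36 ± 0.23 (edgeR adjusted p = 0.000115). Of the 8 markers of a lung epithelial line, the summed level was 5200 to 5450 CPM in parental and 4879 to 5738 CPM in BRM knockout libraries but 422 to 1177 CPM in the BRG1 knockout. The 8 fibroblast markers summed to 32.3 to 63.4 CPM, 82.6 to 127 CPM and 396 to 1034 CPM in the same order, and BRG1 knockout replicate 3 had both the lowest epithelial and the highest fibroblast sum. Of the 7 fibroblast markers tested, 5 rose with BRG1 knocked out (21.6% of all tested genes did). With BRM knocked out 1 rose (COL1A1) and 1 fell (PDGFRA), with a median log2 change of −0.53 (21.0% of all genes rose and 16.4% fell). Of the 7 epithelial markers tested, 5 fell and none rose with BRG1 knocked out (21.9% of all genes fell). With BRM knocked out 2 of them rose and none fell. The epithelial transcription factor NKX2-1 fell from a mean of 80.8 CPM to 0.0182 CPM in the BRG1 knockout, and the surfactant gene SFTPB was near 0 in every group. Blood markers summed to at most 3.64 CPM in any library, and the endothelial markers to 48.2 to 75.6 CPM in the BRM knockout against 5.19 to 9.67 CPM in parental libraries, mostly from the receptor gene KDR. Parental replicate 1, BRG1 knockout replicate 3 and BRM knockout replicate 2 stood apart from their groups in a chi-square comparison of replicates over all genes. The part of these differences in the HOX values was not tested. In bulk RNA, fewer cells with a transcript and less of it per cell cannot be told apart.

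HOX RNA was scarce. The 39 genes together held 2435 reads over the 9 libraries, or 0.000733% of all reads, and 31 of them had at least 1 read. The 8 genes listed at 0 in all 9 libraries were HOXA9, HOXA11, HOXA13, HOXB1, HOXB7, HOXB13, HOXC12 and HOXD13, all but HOXB1 and HOXB7 from paralog group 9 or higher. A group with 0 reads could still hold 3 reads, which is 0.0266 CPM in the parental, 0.0274 CPM in the BRG1 knockout and 0.0273 CPM in the BRM knockout group. This limit and the intervals on read ratios given here (95%, exact) cover counting error only. A fold given as at least sets a group with 0 reads to 3 reads. It takes the reads of the other group as exact, so it leaves out their counting error. The 5 tested genes held 87.8% of the HOX reads. Another 26 genes had reads but too few to be tested, at most 39 over all libraries (HOXA7). Between 13 and 17 members had a read in a parental library, 16 to 18 in a BRG1 knockout library and 8 to 12 in a BRM knockout library.

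**Figure D1:**
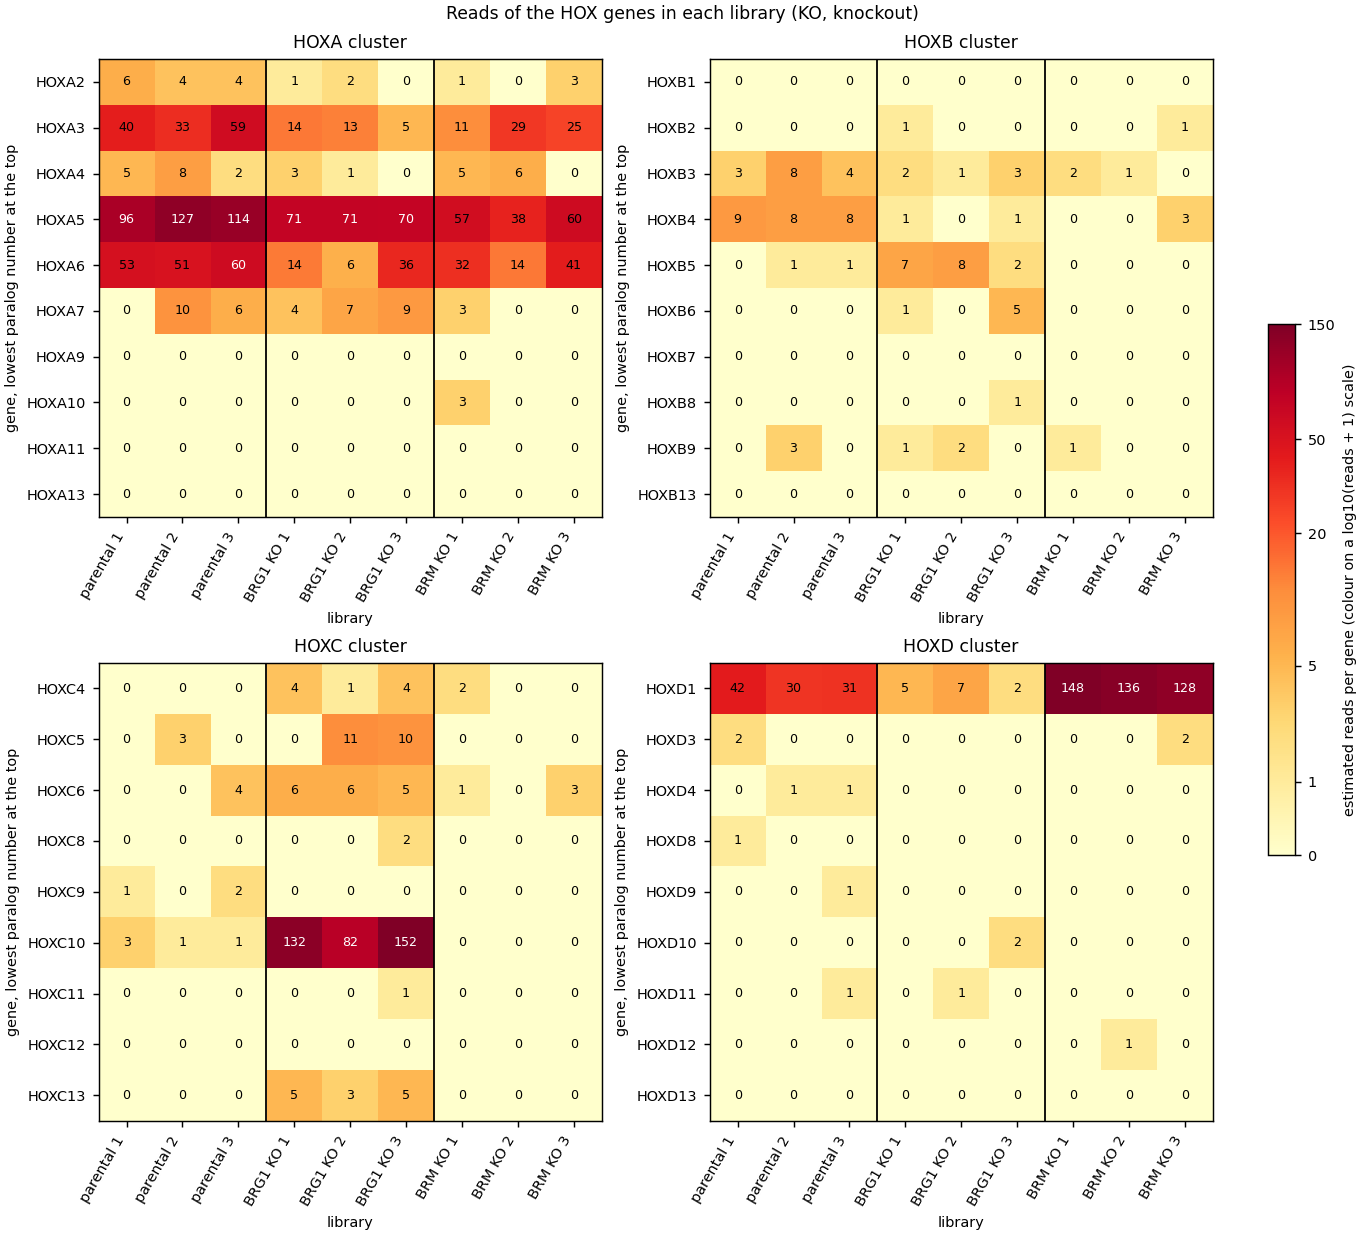
Estimated reads of HOX genes (vertical axis, in paralog order) in each of the 9 libraries (horizontal axis), 1 panel per cluster, with colour on a log10(reads + 1) scale and the rounded number in each cell. Most cells are at or near 0. HOXA5 is covered in every library, HOXC10 has 82 to 152 reads in BRG1 knockout libraries and at most 3 elsewhere, and HOXD1 has 128 to 148 reads in BRM knockout libraries.

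The summed HOX level was similar in the groups, at 7.69 ± 0.442 CPM (SD, n = 3) in parental, 7.49 ± 1.48 CPM in BRG1 knockout and 6.89 ± 0.214 CPM in BRM knockout libraries. The clusters it came from were not. HOXA made up most of the parental sum, at 6.15 ± 0.188 CPM, and was at 3.05 ± 0.370 CPM in the BRG1 knockout and 2.97 ± 0.309 CPM in the BRM knockout. HOXC was at 0.131 ± 0.032 CPM in parental libraries, 3.95 ± 1.14 CPM in the BRG1 knockout and 0.052 ± 0.045 CPM in the BRM knockout. HOXD showed the opposite order, at 1.00 ± 0.330 CPM, 0.154 ± 0.051 CPM and 3.79 ± 0.444 CPM. HOXB was low throughout, at 0.400 ± 0.109 CPM, 0.330 ± 0.040 CPM and 0.071 ± 0.037 CPM. No test was run on these sums.

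**Figure D2:**
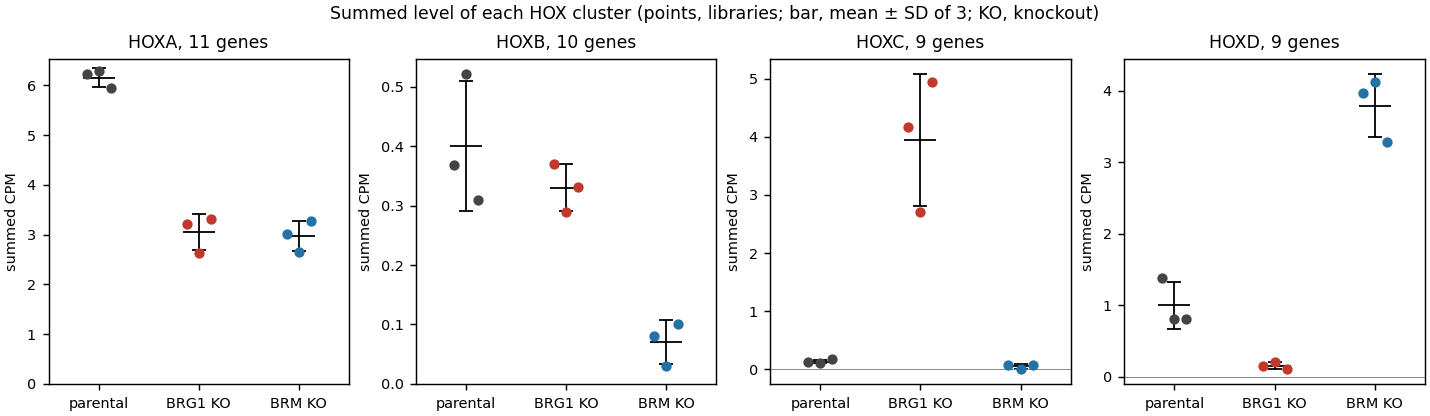
Summed CPM of the members of each cluster (vertical axis, linear, a different range in each panel) in parental, BRG1 knockout and BRM knockout libraries, with points for libraries and bars for mean ± SD of 3. The HOXC points of the BRG1 knockout and the HOXD points of the BRM knockout lie above all points of the other groups, while both knockouts lie below all parental points for HOXA.

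By position in the clusters, the 8 anterior genes (paralog groups 1 to 3) summed to 2.52 ± 0.398 CPM in parental, 0.569 ± 0.276 CPM in BRG1 knockout and 4.47 ± 0.513 CPM in BRM knockout libraries. The 16 posterior genes (groups 9 to 13) summed to 0.115 ± 0.010 CPM, 3.55 ± 1.10 CPM and 0.046 ± 0.055 CPM, and the 15 central genes (groups 4 to 8) to 5.05 ± 0.390 CPM, 3.36 ± 0.575 CPM and 2.38 ± 0.548 CPM. The anterior sum is HOXA3 and HOXD1 in the main, and the posterior sum of the BRG1 knockout is almost wholly HOXC10.

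With BRG1 knocked out, 1 of the 5 tested members rose, HOXC10, against 21.6% of all 18205 tested genes that rose, and 2 fell, HOXA3 and HOXD1, against 21.9%. Of all tested genes 43.5% changed in either direction. With BRM knocked out, 1 member rose, HOXD1 (21.0% of all genes rose), and 1 fell, HOXA5 (16.4% fell, 37.4% changed). Both comparisons use the same 3 parental libraries. In the direct comparison of the knockouts, HOXC10 was higher in the BRG1 knockout (21.6% of all genes were) and HOXD1 was lower (23.8% were), with 45.3% of all genes differing. Changes counted at an adjusted p under 0.05 by edgeR's quasi-likelihood test. With 5 members tested, counts of 1 or 2 are too small to be ranked above or below these shares of all genes. Median log2 changes over the 5 members were −1.50, −0.96 and −0.59 in the 3 comparisons, against −0.01, 0.09 and −0.00 over all genes.

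The clearest change was in HOXC10, a posterior gene known from the hindlimb and lumbar spinal cord. It lies on the plus strand of chromosome 12 at 53985065 to 53990279 (hg38, ENSG00000180818.4). It had 3, 1 and 1 reads in parental libraries, 132, 82 and 152 reads in BRG1 knockout libraries and none in the 3 BRM knockout libraries. Every BRG1 knockout library was thus far above every other library. In CPM the level was 0.0474 ± 0.0388 in parental and 3.37 ± 1.08 in BRG1 knockout libraries (SD, n = 3), a log2 change of 6.13 ± 0.60 (edgeR adjusted p = 7.52e-05). As a ratio of reads per scaled library size this is 75.5-fold, with an interval from counting of 32.1 to 234. Against the BRM knockout it was at least 123-fold higher, taking 3 reads over that group as the floor, and the direct comparison passed (edgeR adjusted p = 2.81e-05). The BRM knockout had 0 reads against 5 in the parental line. With 3 reads as the floor and the 5 reads taken as exact this is 1.62-fold lower. The difference did not pass (edgeR adjusted p = 0.0513). Its adjusted p was under 0.05 in 5 alternative settings, among them the fits without BRG1 knockout replicate 2 or 3 (0.0405 to 0.0497). HOXC10 entered the test only through the BRG1 knockout, where it is high.

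Most HOXC10 reads, 312.1 of 371 over all libraries, were on the main coding transcript. A short transcript of 550 bases had 21.1 and 20.6 reads in BRG1 knockout replicates 1 and 3 and none in replicate 2. The deposited TPM, which divides by length, was 4.96, 1.41 and 8.43 in the BRG1 knockout libraries, a wider spread than that of the reads. The gene shares 2.70% of its exon bases with the antisense HOXC-AS3 and 7.12% with AC012531.2, a same-strand gene that had 2 reads in all.

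The rest of the HOXC cluster (117266 bases on chromosome 12) had reads in numbers too small for the test, most of them in BRG1 knockout libraries. HOXC13, the most posterior gene of the cluster and known from hair and nail, had 5, 3 and 5 reads in BRG1 knockout libraries and none in the other 6, at least 4.47-fold higher than parental and 4.36-fold higher than BRM knockout. HOXC4, at the anterior end of the cluster, had 4, 1 and 4 reads in the BRG1 knockout, none in parental libraries and 2 in the BRM knockout. HOXC6 had 6, 6 and 5 reads in the BRG1 knockout against 4 in parental and 4 in BRM knockout libraries, 4.39-fold higher than parental (1.43 to 17.9). HOXC5 had 11 and 10 reads in BRG1 knockout replicates 2 and 3 but 0 in replicate 1, and 3 in parental replicate 2. A separate noncoding gene of the same symbol, which shares 1053 of the 1775 stretches of 31 bases, had 10 reads in BRG1 knockout replicate 1, so which of these genes the reads belong to is uncertain. HOXC8 and HOXC11 had 2 and 1 reads, all in BRG1 knockout replicate 3. HOXC9 went the other way, with 3 reads, all in parental libraries. HOTAIR, a long noncoding RNA transcribed from the opposite strand beside HOXC11 and known for recruiting Polycomb proteins, had 8, 2 and 5 reads in BRG1 knockout libraries and none in the other 6, at least 5.16-fold higher than parental. The noncoding HOXC-AS2 went the other way, with 0, 3 and 9 reads in parental libraries, 3 in BRG1 knockout replicate 3 and none in the BRM knockout, 3.88-fold lower with BRG1 knocked out (1.05 to 21.4). The 9 HOXC members together had 147, 103 and 179 reads in the BRG1 knockout libraries, 4, 4 and 7 in parental and 3, 0 and 3 in BRM knockout libraries, with no overlap between the BRG1 knockout and the others.

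HOXD1 moved in opposite directions in the knockouts. It is the most anterior gene of the HOXD cluster, at 176188579 to 176190907 on the plus strand of chromosome 2 (ENSG00000128645.14), and belongs to the paralog group that patterns the hindbrain. It had 42, 30 and 31 reads in parental libraries, 5, 7 and 2 in BRG1 knockout libraries and 148, 136 and 128 in BRM knockout libraries. The 3 groups did not overlap in reads or in CPM. From 0.937 ± 0.306 CPM in parental libraries it fell to 0.127 ± 0.0657 CPM in the BRG1 knockout (log2 change −2.84 ± 0.45, edgeR adjusted p = 0.00056). It rose to 3.77 ± 0.462 CPM in the BRM knockout (2.01 ± 0.37, edgeR adjusted p = 0.00201). Between the knockouts the log2 difference was −4.85 ± 0.45 (edgeR adjusted p = 1.39e-05).

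HAGLR, the noncoding gene on the opposite strand beside HOXD1, showed the same order at a higher level. Parental libraries held 8.38, 6.26 and 5.27 CPM, BRG1 knockout libraries 1.28, 2.08 and 1.08 CPM and BRM knockout libraries 28.7, 31.9 and 24.9 CPM. Again no group overlapped another. Its log2 changes were −2.16 ± 0.28 with BRG1 knocked out (edgeR adjusted p = 0.000154) and 2.10 ± 0.26 with BRM knocked out (edgeR adjusted p = 0.000301), and −4.26 ± 0.30 between the knockouts (edgeR adjusted p = 1.95e-06). Both genes share 158 bases of exon, 8% of the exon bases of HOXD1, and of the 16 HAGLR transcripts the 8 that start within 1000 bases of the start of HOXD1 held 94.3% of its reads. Because the strand setting is unknown, some reads counted for HOXD1 may belong to HAGLR or the reverse.

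The stretch just upstream of HOXD1 is shown because transcripts of both strands start in it or next to it. Some HAGLR transcripts start within it, on the opposite strand, at bases 176188531 and 176188546, 48 and 33 bases before HOXD1. The HAGLR transcript with the most reads (1983) starts past it, 12 bases inside HOXD1. It is chr2:176188418-176188578 (GRCh38.p14, plus strand, from the RefSeq promoter table), 161 bases with 77.6% G and C, and its 21 CpG pairs are in capitals.
HOXD1 upstream: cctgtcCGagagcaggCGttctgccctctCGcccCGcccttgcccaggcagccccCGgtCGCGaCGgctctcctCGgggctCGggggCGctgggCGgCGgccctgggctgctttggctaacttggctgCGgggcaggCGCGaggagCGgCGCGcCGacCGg
CpG pairs are where CpG methylation takes place, and dense runs of them are typical of developmental genes. In the 250 bases before the RefSeq start, HOXD1 had 31 CpG pairs. That start lies inside the GENCODE transcript, so the window includes exon bases of HOXD1. The 161 bases shown are the part of it outside the exon. The table held 27 windows of that length for 20 of the 39 HOX genes, with a median of 19 CpG pairs, against 11 over 35116 windows of 27305 genes. The motif CCAAT, searched on both strands like the others, was in 18 of the 27 windows (66.7%) against 32.0% of all windows, TATAAA in 5 (18.5% against 10.7%) and TGATNNAT, the letters of a joint HOX and PBX site, in 3 (11.1% against 6.47%). Neither TGANTCA (6.57% of all windows) nor AGGTCA (12.1%), a motif bound by retinoid receptors, was in any of the 27. These are letter matches in windows that partly overlap, and the data hold no measurement of binding.

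The rest of HOXD was almost silent. HOXD3 and HOXD4 had 4 and 2 reads over all libraries, HOXD8 and HOXD9 1 each, HOXD10 and HOXD11 2 each, and HOXD12 1. The noncoding AC009336.1 had 2, 8 and 1 reads in BRM knockout libraries and none in the other 6, at least 3.76-fold higher than parental. HAGLROS, a noncoding gene beside HAGLR, had 2 reads in parental, 0 in BRG1 knockout and 6 in BRM knockout libraries. Of the 9 HOXD genes, then, the change in the cluster sum was that of HOXD1 alone, which held 103 of the 110 parental reads.

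HOXA was the most active cluster of the parental line (107114 bases on the minus strand of chromosome 7). HOXA5, at 27141052 to 27143668 (ENSG00000106004.4), had the most reads of any member. It had 96, 127 and 114 reads in parental libraries, 71, 71 and 70 in the BRG1 knockout and 57, 38 and 60 in the BRM knockout. All 6 knockout libraries lay below all 3 parental ones. The level was 2.99 ± 0.300 CPM in parental, 1.94 ± 0.075 CPM in BRG1 knockout and 1.40 ± 0.219 CPM in BRM knockout libraries. It fell with BRM knocked out (log2 change −1.10 ± 0.26, edgeR adjusted p = 0.00807). With BRG1 knocked out the change was −0.62 ± 0.26 and did not pass (edgeR adjusted p = 0.0736; DESeq2 0.0378). The direct difference between the knockouts, 0.47 ± 0.26, did not pass either (edgeR adjusted p = 0.169). HOXA5 shares no exon base with another gene.

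HOXA3, an anterior gene known from the pharyngeal arches, thymus and parathyroid, lies at 27106184 to 27152581 (ENSG00000105997.22). It had 40, 33 and 59 reads in parental libraries, 14, 13 and 5 in BRG1 knockout libraries and 11, 29 and 25 in BRM knockout libraries. BRG1 knockout libraries lay below all parental libraries, while BRM knockout replicate 2, at 0.873 CPM, lay inside the parental range. The gene fell from 1.17 ± 0.278 CPM to 0.293 ± 0.137 CPM in the BRG1 knockout (log2 change −1.98 ± 0.53, edgeR adjusted p = 0.011). In the BRM knockout it was at 0.600 ± 0.290 CPM (−0.96 ± 0.50, edgeR adjusted p = 0.153), and the knockouts differed by −1.02 ± 0.53 (edgeR adjusted p = 0.142). Of its 229 reads, 194.5 were on 1 transcript that also spans HOXA4, and without such read-through transcripts HOXA3 had too few reads to be tested.

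HOXA6, at 27145396 to 27150603 (ENSG00000106006.6), had 52.8, 51.1 and 60.1 reads in parental libraries, 13.7, 5.7 and 35.7 in the BRG1 knockout and 32, 14 and 41 in the BRM knockout. All knockout libraries were below all parental libraries, and BRG1 knockout replicate 3 was the highest of its group. Levels were 1.46 ± 0.151 CPM, 0.517 ± 0.432 CPM and 0.772 ± 0.317 CPM. Neither the change of −1.50 ± 0.57 with BRG1 knocked out (edgeR adjusted p = 0.0555) nor that of −0.91 ± 0.56 with BRM knocked out (edgeR adjusted p = 0.223) passed. The former passed in 8 of 22 alternative settings, among them DESeq2 (adjusted p = 0.0292) and limma voom (adjusted p = 0.0193). Without BRG1 knockout replicate 3 it was −2.46 (edgeR adjusted p = 0.00363). In that fit the difference between the knockouts, −0.59 ± 0.58 with all libraries, became −1.47 (edgeR adjusted p = 0.0447). HOXA6 shares 39.3% of its exon bases with HOXA-AS3. That gene was at 1.04 ± 0.0471 CPM in parental libraries and fell to 0.342 ± 0.189 CPM in the BRG1 knockout (−1.60 ± 0.49, edgeR adjusted p = 0.0221), a call lost without parental replicate 2 (−1.62, adjusted p = 0.052) or 3 (−1.57, adjusted p = 0.0638). It was at 0.590 ± 0.183 CPM in the BRM knockout. The sum of HOXA6 and HOXA-AS3, which does not depend on how reads were divided between them, was 2.51 ± 0.148 CPM, 0.860 ± 0.605 CPM and 1.36 ± 0.492 CPM, with both knockouts below all parental libraries.

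**Figure D3:**
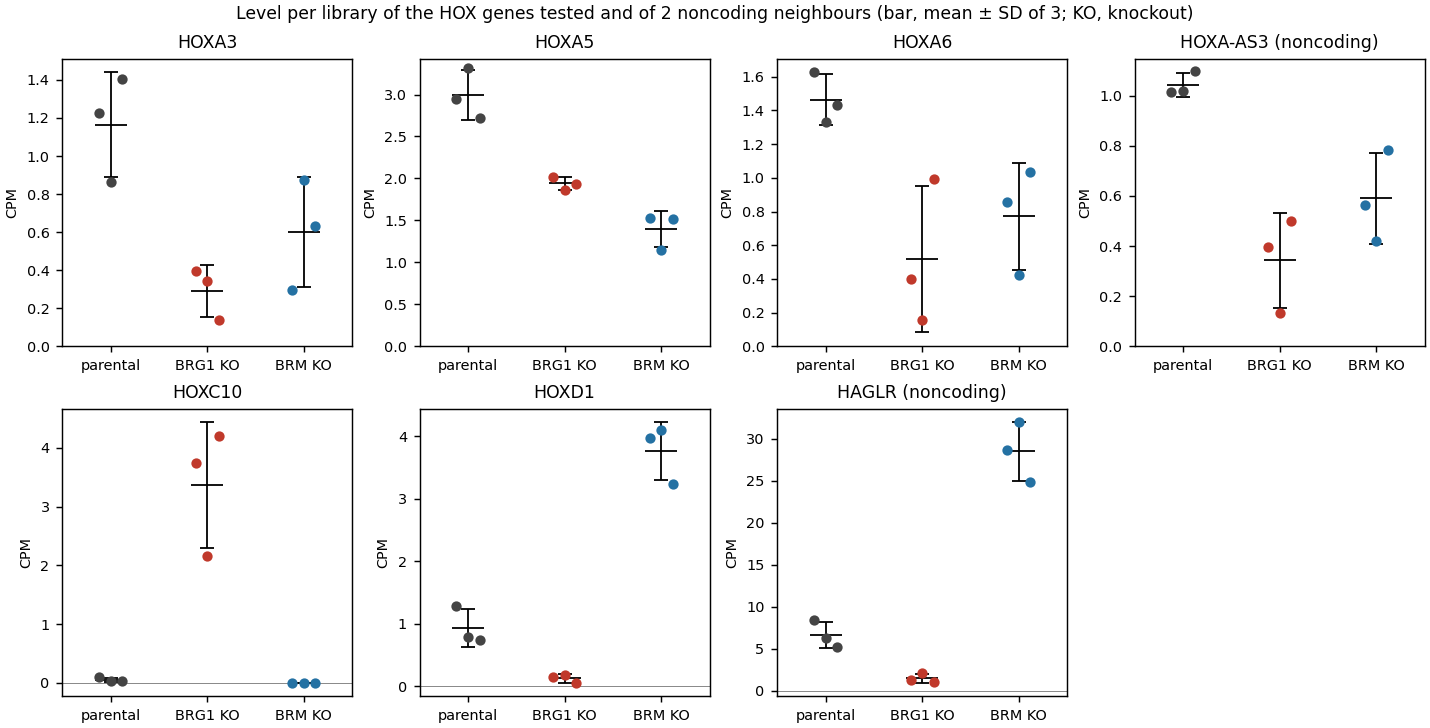
CPM (vertical axis, linear from 0, a different range in each panel) of the 5 tested HOX genes and the noncoding HOXA-AS3 and HAGLR in parental, BRG1 knockout and BRM knockout libraries, with points for libraries and bars for mean ± SD of 3. HOXA5 is below the parental points in both knockouts, HOXC10 stands out in the BRG1 knockout, and HOXD1 and HAGLR are lowest in the BRG1 knockout and highest in the BRM knockout.

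The remaining HOXA genes were counted in a few reads. HOXA2 had 6, 4 and 4 reads in parental libraries, 3 in the BRG1 knockout and 4 in the BRM knockout. For HOXA4 the groups held 15, 4 and 11 reads. HOXA7 had another pattern, with 0, 10 and 6 reads in parental libraries, 4, 7 and 9 in the BRG1 knockout and 3, 0 and 0 in the BRM knockout. Libraries of both knockouts overlapped the parental ones. The ratio of reads to parental was 1.29 (0.635 to 2.66) in the BRG1 knockout, and the BRM knockout was 5.20-fold lower (1.49 to 27.9). Of its stretches of 31 bases, 1481 of 2381 also occur in HOXA-AS3. HOXA10, a gene of the uterus and limb, had 3 reads, all in BRM knockout replicate 1. Of the 22 noncoding genes within HOXA, 4 had reads, and HOXA-AS3 was the only one with enough to test. HOTAIRM1 and HOTTIP, long noncoding RNAs at the ends of the cluster, were listed at 0 in all libraries.

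No HOXB gene (200653 bases on the minus strand of chromosome 17) could be tested. HOXB4, known from blood stem cells, had 9, 8 and 8 reads in parental libraries, 2 in the BRG1 knockout (12.1-fold lower, 3.02 to 106) and 3 in the BRM knockout (8.13-fold lower, 2.48 to 42.0). No knockout library reached the parental range. HOXB5 differed, with 0, 1 and 1 reads in parental libraries, 7, 8 and 2 in the BRG1 knockout (8.77-fold higher, 2.08 to 78.3) and none in the BRM knockout. HOXB6, its neighbour, had 1 and 5 reads in BRG1 knockout replicates 1 and 3 and none in any other library. HOXB3 had 15 reads in parental, 6 in BRG1 knockout and 3 in BRM knockout libraries. HOXB9 had 3, 3 and 1, and HOXB2 and HOXB8 had at most 1 read in any library. The most-read HOXB gene was HOXB4 in parental libraries, with 25 reads, and HOXB5 in BRG1 knockout libraries, with 17.

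Levels can be ordered between genes only per length, as TPM, and are ordered here for the 5 tested members alone. In parental libraries HOXA6 (3.34 ± 0.297 TPM) and HOXA5 (3.05 ± 0.344 TPM) came first and their libraries overlapped. HOXA3 (0.877 ± 0.188 TPM) and HOXD1 (0.770 ± 0.226 TPM) followed, again overlapping, and HOXC10 (0.077 ± 0.057 TPM) was last. In the BRG1 knockout the order of means was HOXC10 (4.93 ± 3.51 TPM), HOXA5 (1.75 ± 0.270 TPM), HOXA6 (1.12 ± 1.09 TPM), HOXA3 (0.219 ± 0.152 TPM) and HOXD1 (0.089 ± 0.037 TPM), with the libraries of each gene overlapping those of the next. In the BRM knockout HOXD1 (3.00 ± 0.395 TPM) led, followed by HOXA6 (1.63 ± 0.717 TPM), HOXA5 (1.37 ± 0.209 TPM) and HOXA3 (0.631 ± 0.257 TPM), and HOXC10 was listed at 0. There HOXA6 overlapped both HOXA5 and HOXA3, and HOXD1 overlapped none.

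The genes around the clusters were looked at to see how far the changes reached. Of 47 flanking protein-coding genes within 500000 bases, 28 were tested. With BRG1 knocked out 6 rose and 5 fell (21.6% and 21.9% of all genes did), and with BRM knocked out 3 rose and 11 fell (21.0% and 16.4% of all genes). In the direct comparison 10 were higher in the BRG1 knockout and 2 lower, against 21.6% and 23.8% of all genes. Beside HOXC, ITGA5, the integrin alpha subunit of the fibronectin receptor, was at 25.4 ± 5.78 CPM in parental libraries, rose to 72.8 ± 3.22 CPM in the BRG1 knockout (log2 change 1.52 ± 0.29, edgeR adjusted p = 0.00195) and fell to 6.11 ± 3.02 CPM in the BRM knockout (−2.06 ± 0.30, edgeR adjusted p = 0.000634). Its order over the groups is that of the HOXC10 means, but the fall of HOXC10 in the BRM knockout (0 reads against 5) did not pass. Of the 16 tested flanking genes of HOXC, 4 rose and 4 fell with BRG1 knocked out, and 2 rose and 8 fell with BRM knocked out. CALCOCO1, on the other side, rose in both knockouts (2.59 ± 0.30 and 2.12 ± 0.30), and CBX5, which encodes a heterochromatin protein, fell in the BRM knockout (−1.90 ± 0.23, edgeR adjusted p = 0.000279). Beside HOXA, SKAP2 fell with BRG1 knocked out (−1.97 ± 0.27, edgeR adjusted p = 0.000216). Its smaller fall with BRM knocked out (−0.77 ± 0.26, edgeR adjusted p = 0.038) was lost without parental replicate 1 (−0.54, adjusted p = 0.138) or 3 (0.0597) or BRM knockout replicate 1 (0.071) or 3 (0.126), and with the replicate number as a block (0.0638). Beside HOXB, PHOSPHO1 rose in the BRG1 knockout (3.23 ± 0.74, edgeR adjusted p = 0.00514), from 0.174 ± 0.065 CPM to 1.63 ± 1.05 CPM. Like HOXC10, it entered the test only through the BRG1 knockout, where it is high. Beside HOXD, the mitochondrial gene MTX2 was at log2 changes of −0.27 and 0.25, neither past the test (edgeR adjusted p = 0.15 and 0.192), against −2.84 and 2.01 for HOXD1. Between the knockouts MTX2 was lower in the BRG1 knockout by a log2 difference of −0.52 ± 0.14 (edgeR adjusted p = 0.0125), against −4.85 for HOXD1.

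**Figure D4:**
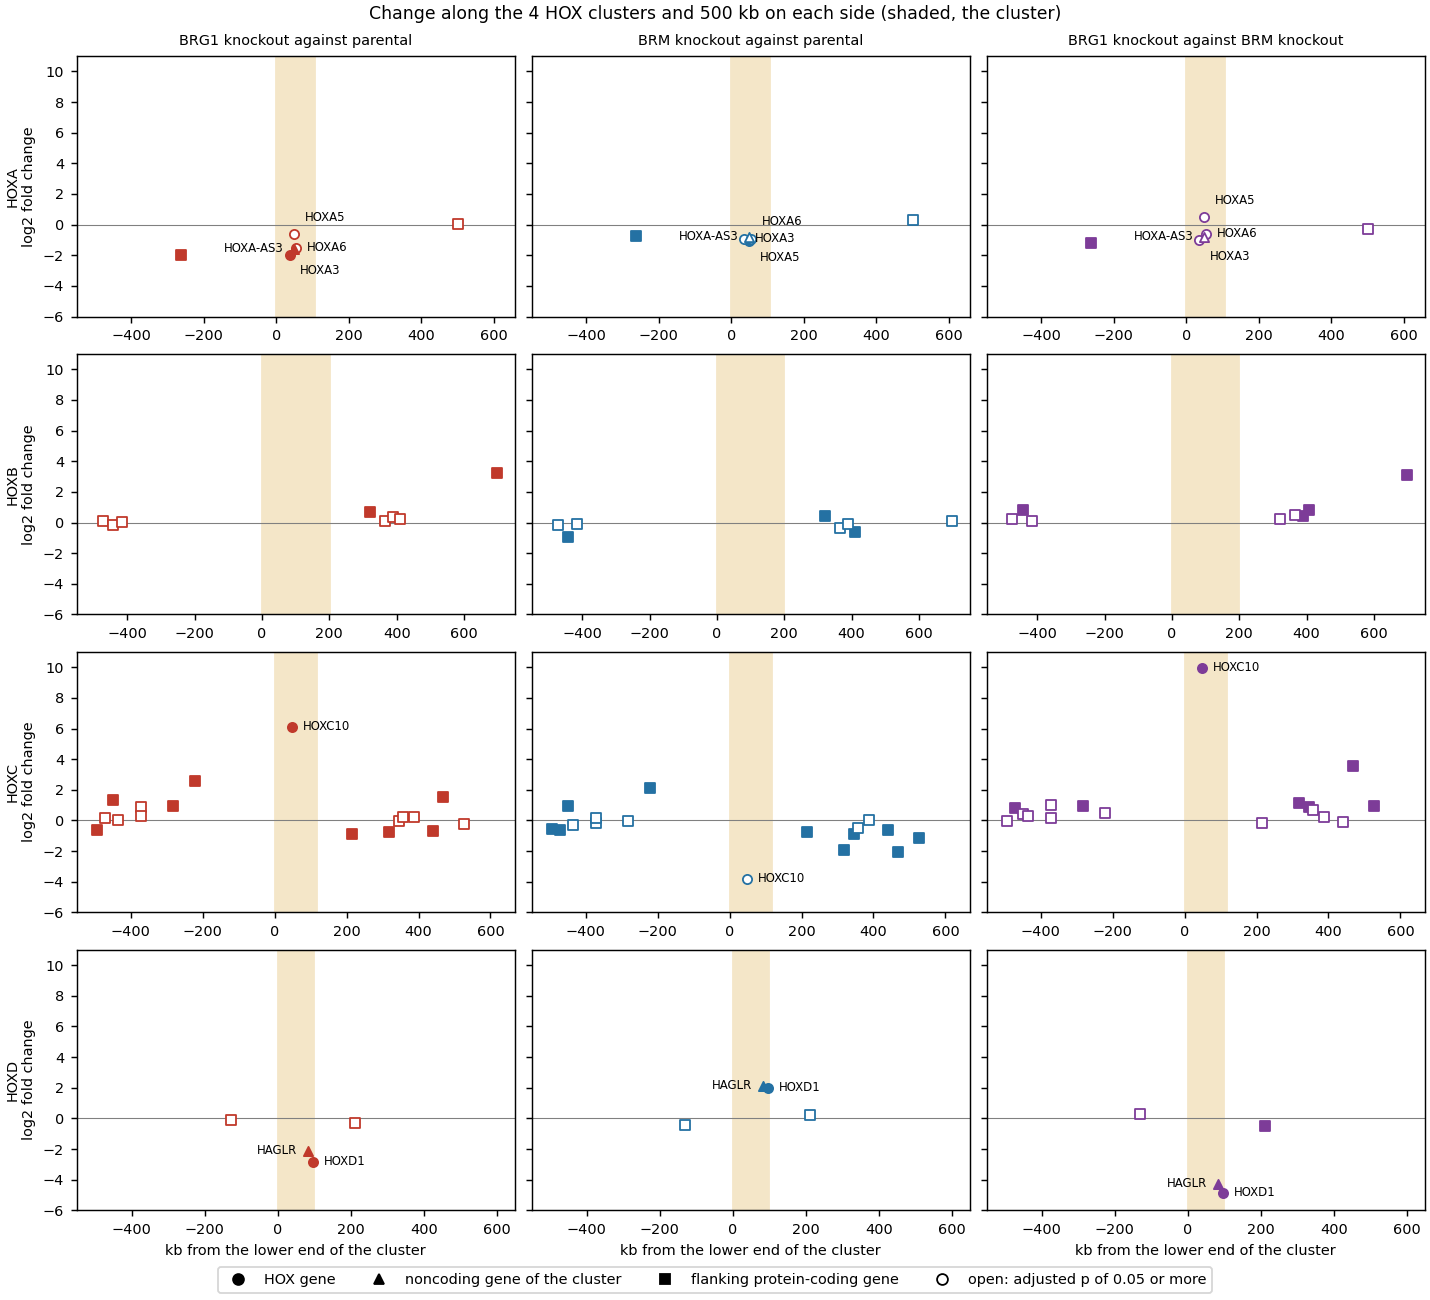
Log2 fold change (vertical axis) of tested HOX genes, noncoding genes of the clusters and flanking protein-coding genes against distance in kb from the lower end of each cluster (horizontal axis), for the 3 comparisons (columns) and 4 clusters (rows of panels). Filled marks passed an adjusted p of 0.05, and shading marks the cluster. HOXC10 in the BRG1 knockout and the HOXD1 and HAGLR pair lie farther from 0 than the flanking genes of the same cluster in these comparisons.

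HOX proteins bind DNA together with TALE homeodomain proteins, and all 9 of these cofactor genes were tested. With BRG1 knocked out 2 rose and 2 fell, near the 21.6% and 21.9% of all genes, and with BRM knocked out 3 rose and 2 fell (21.0% and 16.4% of all genes). In the direct comparison 1 was higher in the BRG1 knockout and 4 were lower, against 21.6% and 23.8% of all genes. MEIS3 stood at 2.43, 0.626 and 1.72 CPM in parental libraries, 10.7, 7.52 and 7.17 CPM in the BRG1 knockout and 10.9, 11.8 and 13.9 CPM in the BRM knockout. Every knockout library was above every parental library. It rose by 2.42 ± 0.40 and 2.94 ± 0.40 on the log2 scale (edgeR adjusted p = 0.000707 and 0.000441), and the knockouts differed by −0.53 (edgeR adjusted p = 0.267). MEIS1, a partner of PBX and HOX proteins known from leukaemia, had a mean of 6.68 CPM in parental and 4.53 CPM in BRG1 knockout libraries and rose to 14.4 CPM in the BRM knockout (1.11 ± 0.26, edgeR adjusted p = 0.0073). It was lower in the BRG1 than in the BRM knockout (−1.67 ± 0.27, edgeR adjusted p = 0.000499). PKNOX2 varied widely among parental libraries, at 37.9, 5.27 and 11.1 CPM, against 0.199, 0 and 0.221 CPM with BRG1 and 0.617, 3.16 and 1.77 CPM with BRM knocked out. It fell in both (−7.00 ± 1.08 and −3.29 ± 0.84, edgeR adjusted p = 0.000687 and 0.0124). The latter call was lost without BRM knockout replicate 3 (−3.26, adjusted p = 0.0539) and with no filter on low counts (−3.39, adjusted p = 0.0666). It was also lost with the replicate number as a block, alone (−2.85, adjusted p = 0.0615) or with GC and length correction (−3.11, adjusted p = 0.0538). Parental replicate 1, the highest, is also one of the libraries that stood apart.

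Retinoic acid, which opens the anterior end of HOX clusters in embryos, acts through carriers, synthesizing enzymes and receptors. Of 18 genes of this pathway 13 were tested. With BRG1 knocked out none rose and 5 fell (21.6% and 21.9% of all genes did), and with BRM knocked out 5 rose and 2 fell (21.0% and 16.4%). In the direct comparison 8 were lower in the BRG1 than in the BRM knockout and none higher, against 23.8% and 21.6% of all genes. CRABP2, which carries retinoic acid to its receptors, stood at 561 ± 141 CPM in parental libraries and fell to 98.7 ± 61.0 CPM in the BRG1 knockout (−2.51 ± 0.48, edgeR adjusted p = 0.00239). In the BRM knockout it was at 971 ± 82.3 CPM (0.79, edgeR adjusted p = 0.201). ALDH1A3, a retinoic acid synthesizing enzyme, fell from 132 ± 49.9 CPM to 10.8 ± 9.43 CPM with BRG1 knocked out (−3.61 ± 0.78, edgeR adjusted p = 0.00457) and was at 137 ± 6.68 CPM with BRM knocked out. Both were lowest in BRG1 knockout replicate 3, with 1050 reads for CRABP2 and 36.3 for ALDH1A3. The receptor gene RARG fell in the BRG1 knockout (−1.45 ± 0.23), while RXRA (1.26 ± 0.21, edgeR adjusted p = 0.00111), the retinol dehydrogenase gene RDH10 (0.97 ± 0.20) and CYP26B1, which breaks retinoic acid down (1.00 ± 0.24, edgeR adjusted p = 0.00731), rose in the BRM knockout. With an offset for transcript length the call for CYP26B1 was lost (0.79, edgeR adjusted p = 0.0517).

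**Figure D5:**
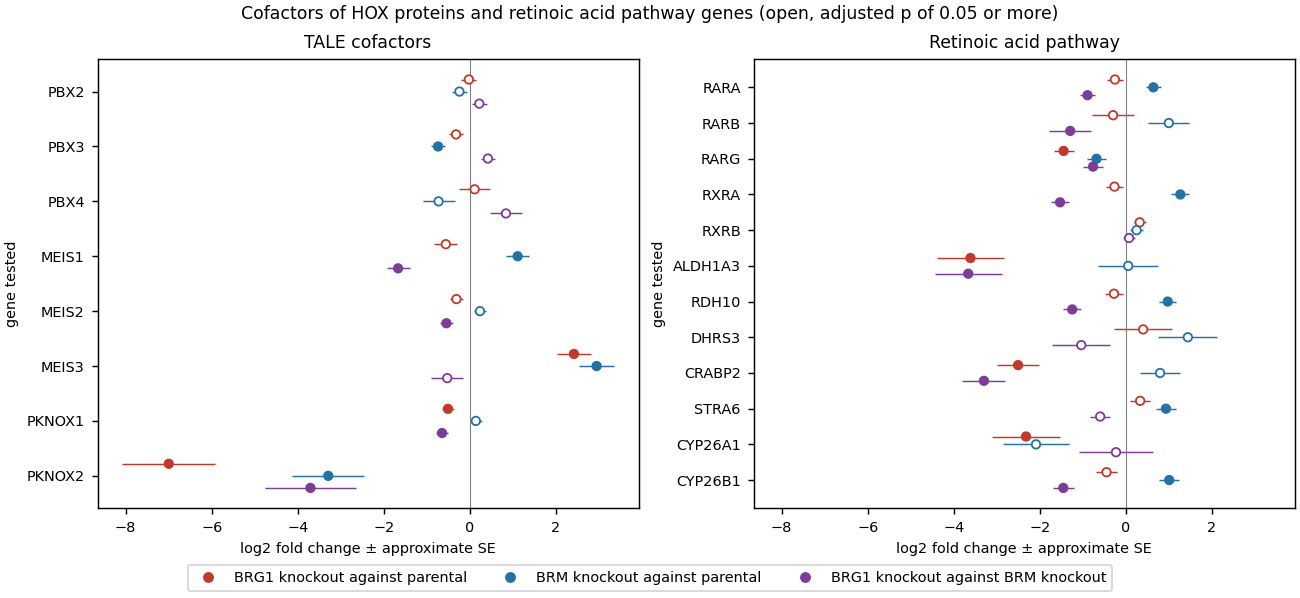
Log2 fold change ± approximate SE (horizontal axis) of TALE cofactor genes and tested genes of the retinoic acid pathway (vertical axis) in the 3 comparisons, with filled points past an adjusted p of 0.05. MEIS3 is on the right in both knockouts, PKNOX2 on the left in both, and the direct comparison of the knockouts has 8 filled points on the left among retinoic acid genes.

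Among the 26 Polycomb genes, which encode the silencers of HOX clusters, 5 rose and 5 fell with BRG1 knocked out (21.6% and 21.9% of all genes did) and 5 rose and 8 fell with BRM knocked out (21.0% and 16.4%). Median log2 changes were −0.11 and −0.03. In the direct comparison 8 Polycomb genes were higher in the BRG1 knockout and 7 lower, against 21.6% and 23.8% of all genes. EZH2, the methyltransferase of Polycomb complex PRC2, fell from 51.2 ± 10.5 CPM in parental libraries to 20.7 ± 3.83 CPM in the BRG1 knockout (−1.31 ± 0.20, edgeR adjusted p = 0.00041) and 13.6 ± 1.09 CPM in the BRM knockout (−1.91 ± 0.20, edgeR adjusted p = 0.000146). EED and JARID2, further parts of PRC2, fell with BRG1 knocked out (−0.76 ± 0.16 and −0.96 ± 0.16), PHF19 in both (−0.94 ± 0.27 and −1.77 ± 0.28), and PCGF3 rose with BRM knocked out (1.31 ± 0.16). Between the knockouts, BMI1 was higher in the BRG1 knockout (1.31 ± 0.18) and CBX7 lower (−1.26 ± 0.23). Of the 12 Trithorax-type activators, 1 rose and 3 fell with BRG1 knocked out, and 1 rose and 1 fell with BRM knocked out, against 43.5% and 37.4% of all genes that changed in either direction. Between the knockouts 1 of them was higher in the BRG1 knockout and 4 were lower, against 45.3% of all genes that differed. The demethylases of the Polycomb mark moved apart in both knockouts. KDM6A fell (−1.44 ± 0.21 and −1.04 ± 0.21, edgeR adjusted p = 0.000331 and 0.0031) and KDM6B rose (1.56 ± 0.28 and 2.00 ± 0.29, edgeR adjusted p = 0.00133 and 0.000554). None of the 6 ParaHOX and CDX genes, the nearest relatives and upstream activators of HOX genes, had enough reads to be tested.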

How the data were processed

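RNA-seq of 9 H358 libraries was deposited as 1 Salmon table per library. Per the file headers, these hold estimated counts per transcript, TPM (scaled by the authors' run of Salmon to length and depth) and effective length in bases as other values. Salmon, DESeq2 and hg38 are named in the submitters' processing notes; the sources used here give no versions, library type or strand setting. Groups were taken from the labelled genotype.

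Estimated counts were summed per gene by transcript ID with GENCODE 29 (203746 of 203835 transcripts matched, the rest with 0.0193% or less of any library) and rounded. All 18205 genes that passed edgeR's filter on low counts were tested over 9 libraries with TMM scaling and the robust quasi-likelihood F test, two-sided, with Benjamini-Hochberg adjustment at 0.05 (edgeR 4.0.16, R 4.3.3; 6 residual degrees of freedom). SE is approximate, the log2 change divided by the square root of F. CPM and read ratios both use the TMM-scaled library size. Alternatives used DESeq2 1.42.0 and limma 3.58.1. The tests were checked on simulated data.

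Full values per library are given for members with a mean of at least 1 CPM in a group or an adjusted p under 0.05, and up to 4 called genes per other list and comparison by size of change. HAGLR, HOTAIR and members with few reads are described by their reads. The members and lists were chosen with earlier results of these data known. TPM was summed per gene and not tested. Values of some single genes are not reported here.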

Additional observations from a re-analysis of the deposited data

Results flagged for a closer look

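HOXC10 and HOXD1 lay on opposite sides of the parental libraries in the knockouts. The direct comparison tests the knockouts against each other, not the side of the parental line on which each lies. For HOXC10 the fall in the BRM knockout did not pass, and the gene entered the test only through the BRG1 knockout, where it is high. For HOXC10 the fitted log2 difference between BRG1 and BRM knockout was 9.96, with the BRM knockout at 0 reads. That size depends on the small count edgeR adds. With 3 reads taken as the floor of the BRM knockout, the reads give 123-fold. For HOXD1 the difference was −4.85, lower in the BRG1 knockout in 3 of 3 libraries. HAGLR, the noncoding neighbour of HOXD1, differed by −4.26 in the same direction, with no overlap between the groups.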

How the results depend on the processing

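Over 22 alternative settings no result reversed. Of 132 counts of changed HOX genes, 119 stayed within 1.5 times the reported one and 13 did not, all of them counts of 1 or 2 genes. Of 323 values of single HOX genes none lost its call and 15 gained one. HOXC10 stayed between 5.80 and 6.90 on the log2 scale with BRG1 knocked out, and HOXD1 between −3.27 and −2.28 with BRG1 and between 1.86 and 2.30 with BRM knocked out. With BRG1 knocked out, the members that rose became 2 with no filter on low counts (HOXC13 added). Those that fell became 4 under DESeq2 (HOXA5 and HOXA6 added) or with no filter (HOXA6 and HOXB4 added), and 1 under a stricter filter or without read-through transcripts, where HOXA3 was not tested. With BRM knocked out, those that fell became 2 (HOXC10 added) under RLE size factors, library totals alone or no filter, and were 1 to 2 over fits that left out 1 library. In the direct comparison those higher in the BRG1 knockout became 4 with no filter (HOXB5, HOXC5 and HOXC13 added) and were 1 to 2 over fits that left out 1 library (HOXC5 without BRG1 knockout replicate 1). HOXC5 had 0 reads in that library. It entered the test only through BRG1 knockout replicates 2 and 3, where it had 11 and 10 reads. Those lower were 1 to 2 (HOXA6 without BRG1 knockout replicate 3). Beyond the number of genes or libraries in a fit, the cause was not tested. With no filter, 31 members and 31790 genes were tested. Of all these genes 3475 rose and 4353 fell with BRG1 knocked out, and 3307 fell with BRM knocked out. In the direct comparison 3861 of them were higher in the BRG1 knockout. Under DESeq2, 5 members were tested, and 4387 of 18205 genes fell with BRG1 knocked out. With BRM knocked out 2991 genes fell in the main fit, 3269 under RLE size factors and 3396 under library totals alone. Without BRG1 knockout replicate 2 or 3 it was 3770 of 18724 and 4181 of 18838. In the direct comparison 3579 of 18760 genes were higher without BRG1 knockout replicate 1, and 4759 of 18838 lower without replicate 3. With BRG1 knocked out 3597 of 15227 fell under the stricter filter and 3983 of 18204 without read-through transcripts. Of 1560 values of other named genes 57 lost a call. Correction for GC content and length moved the median of all genes in the direct comparison from −0.00 to 0.13.

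The replicate numbers gave no clear pairing of the libraries. Deviations of same-numbered libraries of different groups correlated at −0.0792 to 0.175, and those of differently numbered ones at −0.154 to 0.118. The highest value was that of parental 1 with BRG1 knockout 1. With the replicate number as a block, 3 members fell with BRG1 knocked out in place of 2, HOXA6 being added (−1.76, edgeR adjusted p = 0.0229), and the other counts were as reported. In that fit 3845 of 18205 genes fell with BRG1 knocked out. Depth limits 26 of the 31 members with reads to a description of reads, and 12 members held 3 reads or fewer in all.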
